A study of Mus musculus with 12 samples.

Results

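The 6 heterozygous control libraries of the series, 3 from E9.0 (embryonic day 9.0) and 3 from E9.5, were compared with each other to describe how the control head changed between these stages of mouse development. They were chosen by their genotype and stage labels alone and are 6 of the 12 libraries. The remaining 6 are homozygous mutants of the same stages (3 and 3). The strain is labelled C57Bl/6, the treatment label reads none, and every control carried 1 altered copy of Eftud2 (Eftud2+/-), labelled cell-specific, so that neither stage is represented by unaltered embryos. Eftud2 encodes the GTPase that acts in the spliceosome's U5 particle. Mutants are labelled Eftud2-/-. In the control libraries Eftud2 itself had 302, 275 and 279 CPM at E9.0 and 248, 255 and 264 CPM at E9.5 (log2 -0.16 ± 0.053, adjusted p up to 0.117 without the first E9.0 or the first or the second E9.5 library), levels that include every cell of the sample. With total counts only its log2 fold change turned to 0.22 (edgeR adjusted p = 0.182). The Cre driver, the somite numbers, the number of embryos in a library and any date of dissection or sequencing are not given in the labels, so stage and batch cannot be told apart. P-values measure the spread between libraries that may or may not be separate litters. The tissue is described in different ways: the source label names neural crest cells, the tissue label cranial nerve ganglia, and the protocol the embryo's head. The libraries held far more than neural crest: genes of the neural tube (Sox2), of epithelium (Epcam), of endothelium (Cdh5) and of blood and heart were detected in all 6. Sox2 had 186, 189 and 204 CPM at E9.0 and 161, 199 and 174 CPM at E9.5. Epcam had 59.7, 56.4 and 58.2 CPM at E9.0 and 60.2, 59.5 and 52.1 CPM at E9.5, and Cdh5 had 45.3, 40.3 and 32.1 CPM at E9.0 and 29.8, 23.7 and 32.7 CPM at E9.5.

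Around E9.0 the cranial neural tube closes and is divided along its length into forebrain, midbrain and hindbrain by signals from local organizers. Neural crest cells leave its dorsal edge, lose their early transcription factors as they settle, and form the mesenchyme of the pharyngeal arches and, with the placodes, the sensory neurons and glia of the cranial ganglia. In the same period the first neurons are born, the heart loops just beneath the head, and primitive red cells from the yolk sac enter the circulation.

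Levels are in CPM, counts per 1000000 counts of the library after TMM scaling. Gene differences are log2 fold changes of E9.5 over E9.0 with their standard error (SE), from edgeR's quasi-likelihood F test over 14810 genes. A gene was called where the p adjusted by the Benjamini-Hochberg method was under 0.05, and rose or fell is used only of called genes. In brackets, log2 stands for this log2 fold change, with its SE where given. Of all tested genes 35.2% were called, 2840 (19.2%) higher and 2376 (16%) lower at E9.5. These shares are the background against which every count of list members is to be read. Beyond 2-fold, 970 genes rose and 239 fell, and the median log2 fold change of all genes was 0.0082. All 3 libraries of 1 stage lay above all 3 of the other for 25.2% of genes in the direction of E9.5 and for 22.5% in that of E9.0. An exact permutation test of 3 libraries against 3 cannot go below p = 0.1, and each such gene reaches that value.

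The control libraries held 19810025 to 24302660 counts at E9.0 and 25363131 to 31172708 at E9.5. The first principal component of the 6 libraries set the stages apart and held 71.4% of the variance. Ribosomal RNA was unequal: Rn45s, the row of the ribosomal RNA precursor, took 37.4%, 15.1% and 12.5% of all counts at E9.0 and 4.40%, 5.76% and 5.21% at E9.5. Another 2 rows moved with it, Lars2 (47604, 23998 and 21216 against 300.3, 833 and 2171 CPM) and Mir6236 (19076, 6719 and 5085 against 299.8, 666 and 952 CPM). TMM scaling gave the first E9.0 library a factor of 0.664. With total counts as the only scaling, these reads entered the denominator and the median of all genes rose to 0.377 in log2, so changes are given relative to the TMM median. With total counts taken without those 3 rows the median was 0.0433. Every list below whose median was negative had a positive one with total counts only, except those of pharyngeal endoderm, epiblast and ribosome biogenesis. Sex differed too, as 1 control of each stage had almost no Xist (0.220, 280.5 and 279 CPM at E9.0, 0.183, 382 and 269 CPM at E9.5), and none of 5 sex-linked genes was called.

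Genes of beating heart muscle rose steeply in the control libraries. All 21 heart genes tested were higher at E9.5, with a median log2 fold change of 3.82, and their summed level went from 575, 470.4 and 134 CPM to 4432, 6775 and 4265 CPM. The third E9.0 library had the lowest sum, and the groups lay far apart. Nppa, which encodes the atrial natriuretic peptide, had 0.0734, 0.215 and 0.129 CPM at E9.0 and 60.6, 62.3 and 60.8 CPM at E9.5, which is log2 8.68 ± 0.51 (SE; edgeR adjusted p = 1.36e-06). Myl2, the ventricular regulatory myosin light chain, had 1.248, 0.322 and 0.344 CPM at E9.0 and 127, 143 and 121 CPM at E9.5 (log2 7.84 ± 0.28). For both genes every E9.5 library lay far above every E9.0 library. Myl3, another light chain, rose by 5.45 in log2, and Pln, the inhibitor of the calcium pump of the sarcoplasmic reticulum, rose by 5.96 in log2. The heavy chain Myh6 of the sarcomere had 46.98, 48.1 and 4.90 CPM at E9.0 and 464, 675 and 465 CPM at E9.5. It rose by 4.03 in log2, its relative Myh7 by 3.82 in log2 and the cardiac actin Actc1 by 4.09 in log2. Regulators of the heart field rose less, with Tbx5 at log2 2.34, Gata4 at log2 1.91, Nkx2-5 at log2 1.26 and Gata6 at log2 0.94, adjusted p up to 0.0907 without the first E9.5 library. Of the 10 largest rises among called genes with a mean of at least 10 counts and groups that do not overlap, 8 are genes of heart or muscle, and the others are Pf4 of platelets and Hoxb6, given below. Besides those named, the cytochrome oxidase subunit Cox6a2 of striated muscle had 0 counts in every E9.0 library and 2.38, 1.88 and 2.49 CPM at E9.5, at least 41.3-fold higher against a floor of 3 counts over the E9.0 group. Cav3, muscle caveolin, also had 0 counts at E9.0 and was at least 13.1-fold higher (0.579, 0.734 and 0.817 CPM). Nppb rose by 6.03 in log2, and Bmp10, a growth factor of the embryonic heart wall, rose by 5.49 in log2. In bulk RNA a change in the number of cells of a type and a change in RNA per cell cannot be told apart. The heart is not part of the head, and how much heart each sample held is not recorded.

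**Figure D1:**
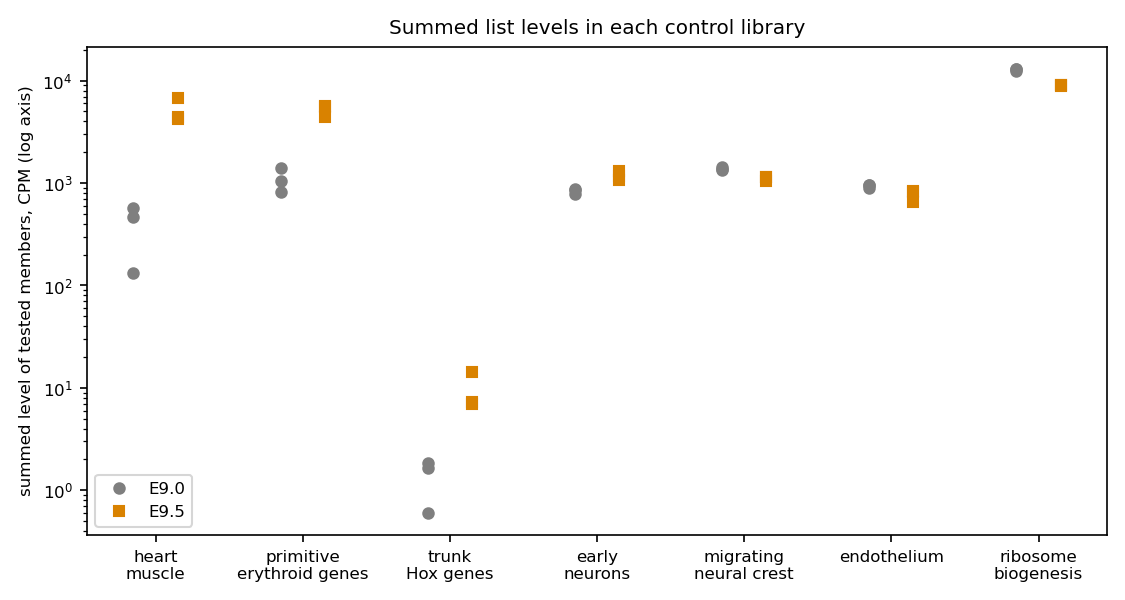
Summed level of the tested members of 7 gene lists in each control library, in CPM on a log axis, with E9.0 as grey circles and E9.5 as orange squares. The heart, erythroid and trunk Hox sums do not overlap between stages, and the sums of the neural crest, endothelial and ribosome biogenesis lists are lower in every E9.5 library.

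The same pattern of 3 low and 3 high libraries held for red cells. Of 22 primitive erythroid genes, 21 were higher and 0 lower (median 1.68), and only the blood stem cell factor Tal1 was not called (log2 0.17 ± 0.13). The embryonic beta-like globin Hbb-y had 197, 166 and 259 CPM at E9.0 and 2126, 1961 and 1652 CPM at E9.5 (log2 3.20 ± 0.40), and the earlier one, Hbb-bh1, had 429, 347 and 671 CPM at E9.0 and 2303, 2326 and 1673 CPM at E9.5 (log2 2.12 ± 0.36). Hba-x, the embryonic alpha-like globin, rose by 1.95 in log2. The haem enzyme Alas2 had 8.22, 7.35 and 13.5 CPM at E9.0 and 47.6, 50.8 and 36.5 CPM at E9.5 (log2 2.19 ± 0.35). The genes of red cell membrane proteins Rhd (log2 2.79) and Slc4a1 (log2 1.70, adjusted p up to 0.0624 without the first or the second E9.0 library) rose as well. Hemgn, another gene of the list, rose by 2.41 in log2. So did the erythroid transcription factors, where Gata1 had 2.13, 2.20 and 3.14 CPM at E9.0 and 7.90, 8.31 and 5.65 CPM at E9.5. Klf1 had 4.18, 2.25 and 3.74 CPM at E9.0 and 10.3, 10.7 and 10.6 CPM at E9.5. The adult globin genes of the list did not pass the filter on low counts. Some are near-identical copies whose reads the counting could have left out, so this was not read as a lack of expression. Summed, the list stood at 1049, 813 and 1392 CPM at E9.0 and 5668, 5592 and 4398 CPM at E9.5.

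GATA1 and KLF1, which bind GATA and CACCC motifs, are the known regulators of this group. The 250 bases before the RefSeq start of 2 of its members are shown as examples of such letters. Whether either factor had a part in the rise of the list was not tested. The build is GRCm38.p6; Hbb-y lies on the minus strand at chr7:103853208-103853457 and Alas2 on the plus strand at chrX:150547167-150547416. Both are printed 5′ to 3′ on the gene's strand, in lower case with matches to AGATAA or CCACCC on either strand in capitals.
Hbb-y: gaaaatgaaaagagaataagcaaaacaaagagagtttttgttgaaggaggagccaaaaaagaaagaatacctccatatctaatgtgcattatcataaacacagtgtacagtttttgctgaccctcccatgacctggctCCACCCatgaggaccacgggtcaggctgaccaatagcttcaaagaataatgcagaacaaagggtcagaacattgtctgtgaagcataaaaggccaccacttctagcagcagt
Alas2: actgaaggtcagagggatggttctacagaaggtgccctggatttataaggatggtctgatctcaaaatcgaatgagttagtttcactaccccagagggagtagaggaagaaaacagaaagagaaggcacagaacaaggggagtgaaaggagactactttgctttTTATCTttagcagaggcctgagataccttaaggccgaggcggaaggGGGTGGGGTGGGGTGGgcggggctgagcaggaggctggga
The Hbb-y window had 1 match to CCACCC and 0 to AGATAA. Other spellings of the GATA motif were not searched, such as TTATCA in this window, which is TGATAA on the opposite strand. The Alas2 window had 1 match to AGATAA, on the opposite strand, and 3 to CCACCC, also on the opposite strand, which overlap in a run. Promoters were found for 14 of the erythroid genes: AGATAA was in 5 of them (35.7%) and in 5.75% of the 11036 tested genes with a promoter, and CCACCC was in 9 (64.3%) and in 34.0%. These matches describe letters in a list of known erythroid genes and do not show binding or a cause of the rise.

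Genes of smooth muscle, some genes of macrophages and platelets and a few trunk Hox genes rose in the same libraries. Of 22 trunk Hox genes, which mark the neck and trunk rather than the head, 5 passed the filter and 4 were called, all higher. These 4 were under 1 CPM in every E9.0 library and passed through their E9.5 values, so the direction of this count was largely set by the filter. Hoxc5 had 0.587, 0.429 and 0.172 CPM at E9.0 and 5.82, 2.61 and 2.52 CPM at E9.5 (log2 3.31 ± 0.67). Hoxa5 had 0.440, 0.804 and 0.215 CPM at E9.0 and 4.02, 1.79 and 1.598 CPM at E9.5 and Hoxb5 had 0.661, 0.375 and 0.129 CPM at E9.0 and 1.77, 1.53 and 1.28 CPM at E9.5. Hoxb6 had 1 count at E9.0 against 109 at E9.5, a ratio of 63.7 whose 95% counting interval ran from 11.2 to 2538. The summed level of the list came to 1.83, 1.66 and 0.602 CPM and then 14.1, 7.22 and 6.96 CPM. Of 13 genes of pericytes and smooth muscle 9 rose and 0 fell. The smooth muscle actin Acta2 had 55.1, 39.9 and 28.2 CPM at E9.0 and 225, 264 and 214 CPM at E9.5 (log2 2.53 ± 0.28). Cnn1 (calponin) rose by 2.96 in log2 and Abcc9, a potassium channel subunit, by 2.56 in log2, while the pericyte receptor Pdgfrb was not called (log2 -0.081 ± 0.20). Acta2, Cnn1 and Des are also made by the embryonic heart, and the part of the heart in their rise was not tested. Of 24 genes of macrophages and platelets 12 were tested: 7 rose, 0 fell and 5 were not called. Members that passed the filter through E9.5 alone could only be higher. Of the 12, 8 were under 0.5 CPM in every E9.0 library, and 6 of these rose. Of the other 4, 1 rose. The platelet chemokine Pf4 had 0, 0.161 and 0.0430 CPM at E9.0 and 4.27, 2.76 and 3.84 CPM at E9.5 (log2 5.55 ± 0.51), and Csf1r, the receptor of macrophage growth factor, had 0.147, 0.215 and 0.172 CPM at E9.0 and 0.793, 0.352 and 1.14 CPM at E9.5 (log2 2.02 ± 0.49). Ppbp, another platelet chemokine, had 0 counts at E9.0 and was at least 11.1-fold higher at E9.5. Yolk sac endoderm gave no such picture, with 1 of 8 tested genes higher and 2 lower. Afp (alpha-fetoprotein) had 0, 1.07 and 0.301 CPM at E9.0 and 20.7, 0.0587 and 0.0355 CPM at E9.5, high in 1 library of E9.5 only, and was not called (log2 3.84 ± 1.97). Without that library its log2 fold change was -3.19.

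Most proneural and neurogenic genes, which start the birth of neurons, rose. Of 23 proneural and neurogenic genes tested, 19 were higher and 1 lower (median 1.62). Of these 23, 4 were under 0.5 CPM in every E9.0 library and passed the filter on low values through other libraries, so that they could hardly be lower. Of the other 19, 15 rose and 1 fell. Among the proneural factors, Neurog2 had 4.70, 5.52 and 4.04 CPM at E9.0 and 7.84, 8.07 and 8.81 CPM at E9.5 (log2 0.80 ± 0.13). Neurog1 had 3.08, 3.38 and 3.14 CPM at E9.0 and 6.77, 9.60 and 7.57 CPM at E9.5 (log2 1.32 ± 0.18). Several other factors of the list had larger log2 fold changes. Neurod1 had 0.807, 0.804 and 0.774 CPM at E9.0 and 8.60, 9.45 and 9.84 CPM at E9.5 (log2 3.54 ± 0.21; edgeR adjusted p = 1.30e-08). Nhlh2 had 0.147, 0.268 and 0.215 CPM at E9.0 and 7.44, 7.51 and 9.91 CPM at E9.5 (log2 5.23 ± 0.31). Nhlh1 rose by 2.91 in log2 and Neurod4 by 2.33 in log2. Atoh1, the factor of the rhombic lip, had 0.294, 0.268 and 0.258 CPM at E9.0 and 2.90, 3.20 and 3.41 CPM at E9.5 (log2 3.52 ± 0.32). The zinc finger factors Insm1 (log2 1.91), Myt1 (log2 2.49) and Scrt1 (log2 2.73) rose with them. The broadly expressed Sox11 (log2 -0.019 ± 0.063) and Ebf2 (log2 -0.086 ± 0.099) were not called.

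Early neurons followed: 21 of 30 genes were higher and 2 lower (median 0.83). Dcx, a microtubule protein of migrating neurons, had 1.54, 3.70 and 2.62 CPM at E9.0 and 15.9, 18.96 and 17.5 CPM at E9.5 (log2 2.69 ± 0.19). Elavl3, an RNA-binding protein of young neurons, had 2.64, 4.56 and 2.45 CPM at E9.0 and 12.5, 14.4 and 15.4 CPM at E9.5 (log2 2.13 ± 0.17). Tubb3, the neuronal tubulin, had 33.4, 34.001 and 38.2 CPM at E9.0 and 83.1, 103 and 97.3 CPM at E9.5 (log2 1.42 ± 0.079). Cntn2, an axonal adhesion protein, rose by 2.94 in log2, and the neurofilament Nefm by 1.90 in log2. Syp, the synaptic vesicle gene of synaptophysin, rose too (2.94, 2.57 and 3.10 CPM at E9.0 and 5.58, 6.34 and 5.47 CPM at E9.5). The adhesion gene Nrcam fell, from 38.6, 42.9 and 37.2 CPM to 18.9, 22.04 and 22.2 CPM (log2 -0.91 ± 0.088). Among 23 genes of neuronal subtypes and ganglia 11 were higher and 6 lower. Of these 23, 5 were under 0.5 CPM in every E9.0 library and could hardly be lower, and 4 of them rose. Of the other 18, 7 rose and 6 fell. Pou4f1, a factor of sensory neurons, had 4.84, 5.26 and 5.38 CPM at E9.0 and 8.81, 15.8 and 10.5 CPM at E9.5 (log2 1.17 ± 0.19). Tlx3 rose by 2.92 in log2 and Hmx1 by 4.33 in log2. Ret, the receptor of GDNF, went the other way, with 25.98, 22.4 and 21.5 CPM at E9.0 and 5.58, 8.01 and 4.76 CPM at E9.5 (log2 -1.91 ± 0.19), as did Gata3 (log2 -0.66). Tbx20, which rose by 2.36 in log2, marks hindbrain motor neurons but also heart muscle, whose sums are given above, and its source was not tested.

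Genes of the splicing and chromatin switch that goes with neuronal differentiation moved in part. The neuronal splicing regulators Srrm3 (0.408 ± 0.127 to 1.98 ± 0.429 CPM; log2 2.25) and Srrm4 (3.06 ± 0.623 to 7.54 ± 1.74 CPM; log2 1.32) rose, whereas their antagonists in progenitors fell a little: Ptbp1 had 690.2, 573 and 573 CPM at E9.0 and 483, 474 and 475 CPM at E9.5 (log2 -0.36 ± 0.072) and Rest, the repressor of neuronal genes, 112, 106 and 108 CPM at E9.0 and 86.9, 85.6 and 87.2 CPM at E9.5 (log2 -0.32 ± 0.051). Both small falls changed sign with total counts as the only scaling. Of the 23 genes on this list 10 were higher and 4 lower (2 lower without the second E9.5 library). The neuronal Rbfox3 was not called (log2 -0.47 ± 0.21).

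Progenitors of the neural tube showed no common direction, with 7 of 20 genes higher and 5 lower (median -0.021; 3 lower without the first E9.5 library). Sox1 (log2 -0.12 ± 0.15) and Sox3 (log2 -0.11 ± 0.096), like Sox2 (log2 -0.12 ± 0.071), were not called. Fabp7, a fatty acid carrier that marks radial glia, had 3.38, 5.47 and 5.16 CPM at E9.0 and 22.1, 27.1 and 22.8 CPM at E9.5 (log2 2.33 ± 0.15). Vim (vimentin) had 229, 243 and 205 CPM at E9.0 and 501, 445 and 547 CPM at E9.5 (log2 1.14 ± 0.086). Slc1a3, the glial glutamate transporter, rose by 0.81 in log2 and Zic1 by 1.05 in log2. Hes3, an early progenitor repressor, fell by 2.41-fold (15.7, 11.05 and 11.01 CPM at E9.0 and 3.38, 8.48 and 3.55 CPM at E9.5), and its relative Hes5, which acts later, rose by 0.50 in log2. Sox9, of progenitors and crest, was lower (log2 -0.43).

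**Figure D2:**
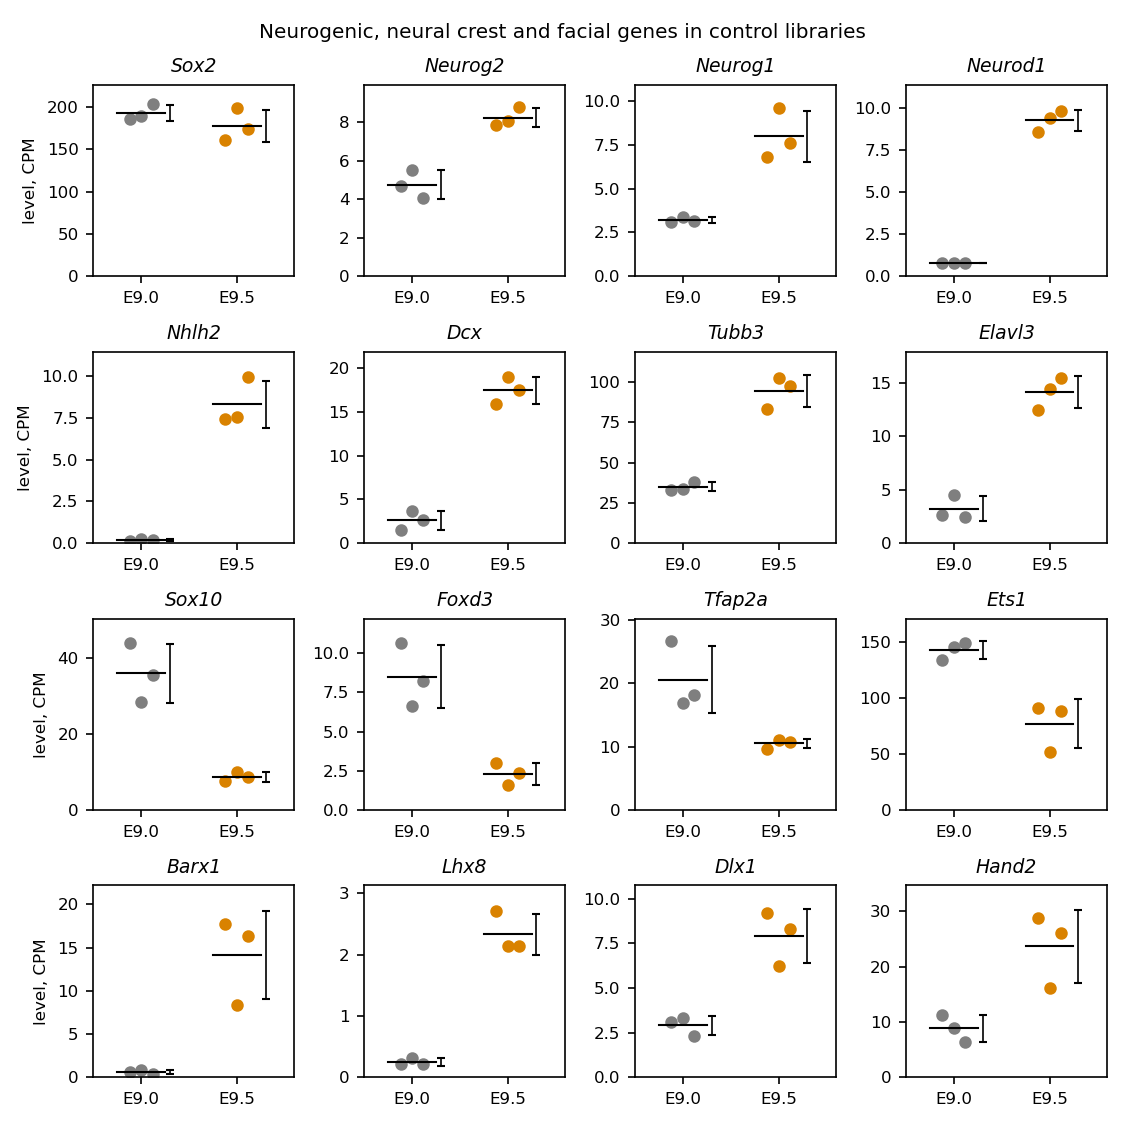
Level in CPM of 16 genes in the 3 control libraries of E9.0 (grey) and E9.5 (orange), with a bar at the mean and an error bar of ±1 SD. Neurod1, Nhlh2, Barx1 and Lhx8 lie under 1 CPM in every E9.0 library, the crest genes Sox10 and Foxd3 lie lower in every E9.5 library, and Sox2 overlaps between stages.

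Within each brain region some genes rose and others fell. Of 25 genes of forebrain and eye field 9 were higher and 5 lower (median 0.16; 3 lower without the first or the third E9.0 or the first E9.5 library). The median was 0.26 without the third E9.0 library and 0.08 without the third E9.5 library. Genes of later identities were among the rises. The retinal factor Vax2 rose by 1.88 in log2, the thalamic factor Lhx9 by 1.81 in log2, and the cortical gene Fezf2 by 1.05 in log2. Early eye field and anterior plate genes were among the falls. Rax had 10.5, 9.76 and 11.4 CPM at E9.0 and 4.18, 3.64 and 4.97 CPM at E9.5 (log2 -1.31 ± 0.16). Six3 had 15.4, 13.2 and 11.8 CPM at E9.0 and 6.40, 6.72 and 7.28 CPM at E9.5 (log2 -0.98 ± 0.17). Hesx1 had 5.87, 2.52 and 5.46 CPM at E9.0 and 1.37, 0.792 and 1.24 CPM at E9.5 (log2 -2.02 ± 0.31). Otx2 (log2 -0.34 ± 0.16) and Lhx2 (log2 0.11 ± 0.18), which mark wide areas, were not called. At the boundary of midbrain and hindbrain 3 of 16 genes rose and 6 fell, with 1 rise left without the third E9.0 or the second E9.5 library. Pax2 had 7.71, 4.72 and 4.30 CPM at E9.0 and 0.945, 2.14 and 1.24 CPM at E9.5 (log2 -1.91 ± 0.32). Pax8 had 15.3, 11.6 and 12.4 CPM at E9.0 and 2.68, 6.93 and 3.91 CPM at E9.5 (log2 -1.53 ± 0.27). En1 had 22.7, 16.9 and 22.3 CPM at E9.0 and 5.52, 13.2 and 7.64 CPM at E9.5 (log2 -1.22 ± 0.34, adjusted p up to 0.0667 without the first or the third E9.0 or the third E9.5 library). Gbx2 (log2 -0.95) and Wnt1 (log2 -0.71) fell too. The boundary signal Fgf8 was not called (11.96, 11.3 and 10.5 CPM at E9.0 and 13.02, 15.4 and 10.8 CPM at E9.5; log2 0.23 ± 0.14), and its relatives Fgf17 (log2 0.88, adjusted p up to 0.0773 without the second or the third E9.0 or the second E9.5 library) and Fgf18 (log2 0.92) rose.

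Among 17 tested genes of hindbrain segmentation 2 rose and 4 fell, a share near that of all genes, and 2 fell without the first E9.0 or the third E9.5 library. Egr2 (Krox20), which marks rhombomeres 3 and 5, had 12.04, 7.62 and 12.6 CPM at E9.0 and 0.762, 2.82 and 1.14 CPM at E9.5 (log2 -2.75 ± 0.40; edgeR adjusted p = 3.51e-04). It is among the 10 largest falls of called genes with a mean of at least 10 counts and groups that do not overlap. Hoxb1 of rhombomere 4 was not called (log2 -0.70 ± 0.27). Hoxa2 (log2 -0.025 ± 0.13) and Hoxb2 (log2 -0.036 ± 0.13) were near 0 difference. Hox genes of the posterior hindbrain and neck were higher or not called: Hoxc4 rose (log2 1.497) and so did Hoxb3 (log2 0.79, adjusted p up to 0.138 without the first or the third E9.0 or the first or the third E9.5 library). Hoxb4 (log2 1.21 ± 0.44) and Hoxa4 (log2 1.46 ± 0.68) missed the threshold, and the trunk Hox genes rose as given above. Among 22 genes that pattern the neural tube from back to belly 5 rose and 5 fell, which is near the shares of all genes. The rises included Olig3 at 5.28, 5.90 and 5.16 CPM at E9.0 and 14.1, 18.4 and 13.5 CPM at E9.5 (log2 1.496 ± 0.13), Wnt3a at log2 0.61 and Msx3 at log2 0.63. The falls were Nkx2-9 at 13.2, 11.2 and 11.3 CPM at E9.0 and 3.45, 2.64 and 3.37 CPM at E9.5 (log2 -1.91 ± 0.27), Nkx6-1 at 16.2, 13.03 and 12.3 CPM at E9.0 and 5.98, 3.32 and 7.53 CPM at E9.5 (log2 -1.30 ± 0.25), Foxa2, the gene of the floor plate and of endoderm, at log2 -1.04, Irx3 at log2 -0.54 and Pax6 at log2 -0.41. The ventral genes Shh (log2 -0.43 ± 0.41), Olig2 (log2 -0.055 ± 0.14), Nkx6-2 (log2 -0.0044 ± 0.20) and Nkx2-2 (log2 -0.53 ± 0.27) were not called, nor were the dorsal Pax3 (log2 0.013 ± 0.11) and Pax7 (log2 -0.047 ± 0.17).

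**Figure D3:**
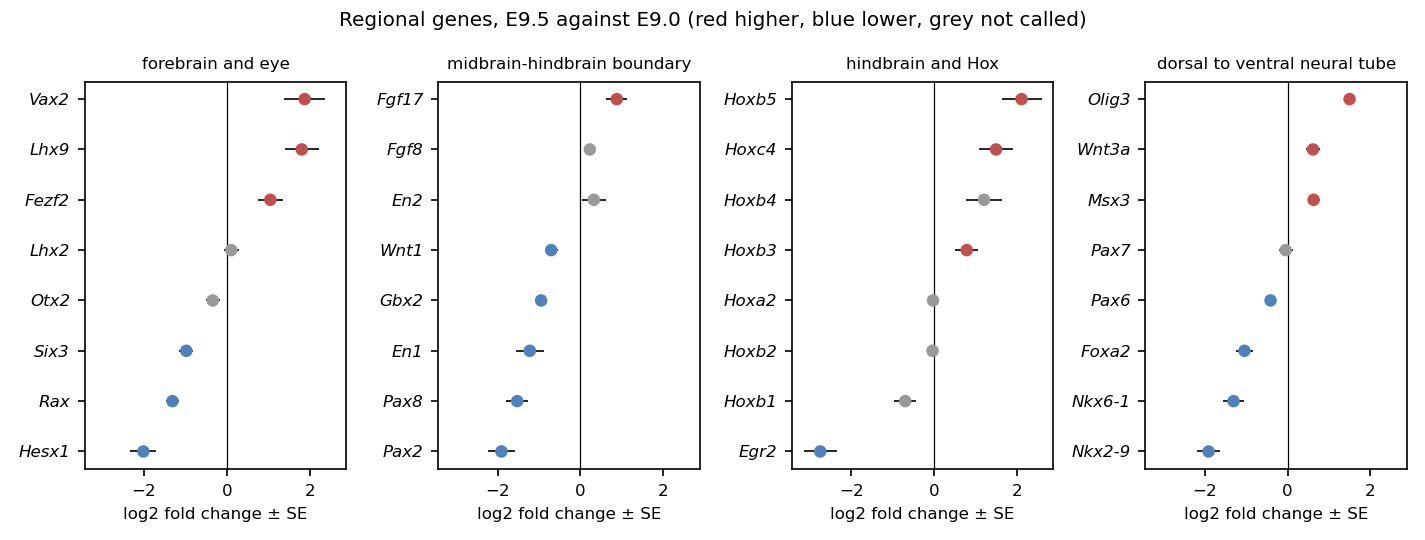
Log2 fold change of E9.5 over E9.0 with its SE for 32 regional genes in 4 panels; red points are called higher, blue points called lower and grey points not called. Each panel holds rises, falls and genes near 0, with Egr2 lowest at -2.75.

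Many genes of migrating neural crest fell. Of 23 tested, 3 rose and 11 fell (median -0.23, and 0.16 with total counts as the only scaling). Sox10, the factor of migrating crest and later of glia, had 43.9, 28.4 and 35.4 CPM at E9.0 and 7.65, 10.2 and 8.67 CPM at E9.5 (log2 -2.01 ± 0.19; edgeR adjusted p = 4.20e-06), 4.04-fold lower. Foxd3 had 10.6, 6.65 and 8.26 CPM at E9.0 and 2.99, 1.58 and 2.38 CPM at E9.5 (log2 -1.87 ± 0.26). Tfap2a had 26.6, 16.9 and 18.2 CPM at E9.0 and 9.73, 11.2 and 10.8 CPM at E9.5 (log2 -0.95 ± 0.16). Ets1, the factor of cranial crest, had 134, 145 and 148 CPM at E9.0 and 91.01, 51.9 and 88.7 CPM at E9.5 (log2 -0.89 ± 0.19). It is made by endothelium too. The adhesion genes Cdh19 (log2 -1.68) and Cdh6 (log2 -0.82) and the neuregulin receptor Erbb3 (log2 -0.50) fell, while the neurotrophin receptor Ngfr (log2 -0.22 ± 0.15) and the adhesion gene Cdh11 (log2 -0.15 ± 0.11) were not called. The emigration factor Snai1 fell (log2 -0.63, adjusted p up to 0.152 without the first E9.0 or the first or the second E9.5 library), while Snai2 (log2 0.43 ± 0.17) and Twist1 (log2 -0.065 ± 0.15) were not called. The 3 rises were Fabp7, given above, Sox8 (3.38, 4.93 and 3.74 CPM at E9.0 and 9.79, 4.90 and 9.84 CPM at E9.5; log2 1.01 ± 0.24) and the endothelin receptor Ednrb (21.7, 25.9 and 18.7 CPM at E9.0 and 40.7, 36.4 and 35.6 CPM at E9.5; log2 0.77 ± 0.14).

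Transcription factors of the facial mesenchyme moved the other way, with 11 of 30 tested genes higher and 1 lower (median 0.23). The median was 0.12 without the first and 0.44 without the second E9.5 library, and 0.44 without the first and 0.14 without the third E9.0 library. Barx1, a factor of the proximal jaw, had 0.587, 0.858 and 0.387 CPM at E9.0 and 17.8, 8.36 and 16.3 CPM at E9.5, 23.4-fold higher (log2 4.55 ± 0.36; edgeR adjusted p = 6.32e-07). Lhx8, of the oral side of the arches, had 0.220, 0.322 and 0.215 CPM at E9.0 and 2.71, 2.14 and 2.13 CPM at E9.5 (log2 3.18 ± 0.32). The second E9.5 library was the lowest of E9.5 for Barx1 and for Hand2, a factor of the distal jaw and of the heart (11.2, 8.96 and 6.45 CPM at E9.0 and 28.8, 16.2 and 26.03 CPM at E9.5; log2 1.44 ± 0.22). Dlx1, of the proximal to distal Dlx code, had 3.08, 3.33 and 2.32 CPM at E9.0 and 9.18, 6.25 and 8.28 CPM at E9.5 (log2 1.45 ± 0.19). Dlx2 (log2 0.31 ± 0.18), Dlx3 (log2 0.41 ± 0.19) and Dlx6 (log2 0.12 ± 0.21) were not called. The general mesenchyme genes Prrx1 (log2 0.90, adjusted p up to 0.0583 without the first or the third E9.0 library), Twist2 (log2 1.27), Msx1 (log2 0.60) and Msx2 (log2 0.59) rose. Foxc2, of head mesoderm, was the 1 gene that fell (24.2, 22.9 and 16.9 CPM at E9.0 and 11.6, 7.13 and 12.6 CPM at E9.5; log2 -1.03 ± 0.23). Genes that act in palate and bone formation later were low and not called, among them Runx2 (log2 0.086 ± 0.55) and Osr2 (log2 -0.38 ± 0.40). For the endothelin signal that patterns the lower jaw, the ligand Edn1 was not called (log2 -0.19 ± 0.16) and its receptor Ednra fell (28.8, 28.2 and 24.2 CPM at E9.0 and 18.4, 17.3 and 20.9 CPM at E9.5; log2 -0.52 ± 0.092). Bmp4, another arch signal, rose by 0.90 in log2.

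Many collagen genes rose, 13 of 30 higher and 1 lower (median 0.40). Without the second E9.5 library 20 were higher. The fibrillar chain Col1a1 had 18.9, 20.3 and 16.9 CPM at E9.0 and 60.3, 22.3 and 50.97 CPM at E9.5 (log2 1.255 ± 0.31, adjusted p up to 0.0539 without the third E9.0 library). Col3a1 had 109, 164 and 159 CPM at E9.0 and 402, 171 and 452 CPM at E9.5 (log2 1.24 ± 0.34, adjusted p up to 0.0792 without the first or the third E9.0 or the first or the third E9.5 library). The cartilage chain Col2a1 had 242, 251 and 248 CPM at E9.0 and 394, 418 and 456 CPM at E9.5 (log2 0.78 ± 0.062). These were higher in all 3 libraries of E9.5, and the rarer Col6a3 (log2 1.85) and Col14a1 (log2 1.66) had the greatest rises. The basement membrane chains Col4a1 (log2 0.039 ± 0.097) and Col4a2 (log2 0.18 ± 0.089) were not called, and neither was Col18a1 (log2 0.11 ± 0.056). Among 31 other matrix genes 8 rose (5 without the first or the third E9.0 library) and 3 fell, a share called near that of all genes. Fbln5, of elastic fibres, had 0.367, 0.429 and 0.301 CPM at E9.0 and 3.96, 1.47 and 4.12 CPM at E9.5 (log2 3.11 ± 0.41). Postn rose (log2 0.97, adjusted p up to 0.0588 without the first or the third E9.0 library), and Has2, the hyaluronan synthase, fell (83.7, 92.5 and 88.9 CPM at E9.0 and 56.7, 45.4 and 48.6 CPM at E9.5; log2 -0.82 ± 0.091). Fn1 (fibronectin; log2 -0.22 ± 0.13) and Vcan (versican) were not called.

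Contractile genes of the muscle list rose, and the head muscle regulators Myf5, Msc and Tcf21 were not called. Of 19 tested genes of cranial muscle and mesoderm 6 rose and 3 fell. Acta1, skeletal actin, had 4.62, 2.04 and 1.46 CPM at E9.0 and 45.6, 46.96 and 41.2 CPM at E9.5 (log2 4.16 ± 0.34). Myl1, a light chain, had 0.881, 0.429 and 0.0860 CPM at E9.0 and 10.1, 15.4 and 16.1 CPM at E9.5 (log2 5.09 ± 0.44). These are also made by the embryonic heart, whose list rose in the same libraries, and its part was not tested. Myf5 (log2 0.19 ± 0.49), Msc (log2 -0.0016 ± 0.30) and Tcf21 (log2 -0.072 ± 0.20) were near 0 difference or uncertain, and Myod1 did not pass the filter. The muscle regulator Myog had a larger difference (log2 1.95) and was not called either. The mesoderm factor Tbx1 fell (28.2, 19.6 and 18.9 CPM at E9.0 and 12.9, 11.3 and 12.6 CPM at E9.5; log2 -0.85 ± 0.13). In placodes, ear and lens 7 of 24 genes rose (4 without the third E9.0 library) and 6 fell. The ear protein Oc90 (0, 0.161 and 0.129 CPM at E9.0 and 0.579, 0.880 and 0.781 CPM at E9.5; log2 2.74 ± 0.54) and the neurotrophin Bdnf (log2 0.66) rose. The early placode factors Foxi3 (4.99, 3.49 and 5.20 CPM at E9.0 and 2.04, 2.44 and 2.24 CPM at E9.5; log2 -1.02 ± 0.20), Pax8 and Pax2 fell. Cryab, a small heat shock protein of lens and heart, rose by 2.81 in log2. In surface ectoderm 6 of 25 genes rose and 2 fell, a share called (32%) near that of all genes. Trp63, the factor of stratifying epithelium, had 4.99, 6.17 and 5.89 CPM at E9.0 and 23.1, 18.05 and 19.002 CPM at E9.5 (log2 1.81 ± 0.16). Its target Perp had 5.73, 4.77 and 4.21 CPM at E9.0 and 18.4, 14.5 and 16.1 CPM at E9.5 (log2 1.76 ± 0.14). Krt14 rose by 2.54 in log2. The general epithelial genes Krt8 (log2 -0.11 ± 0.096), Cdh1 (log2 -0.29 ± 0.12) and Epcam (log2 -0.019 ± 0.076) were not called.

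Of 16 genes of pharyngeal endoderm and notochord 1 rose and 8 fell (median -0.65, and -0.26 with total counts only). T (brachyury), the notochord factor, had 3.52, 3.27 and 3.70 CPM at E9.0 and 0.335, 0.470 and 0.568 CPM at E9.5 (log2 -2.93 ± 0.45). Hhex had 3.89, 4.93 and 4.34 CPM at E9.0 and 2.04, 1.41 and 2.34 CPM at E9.5 (log2 -1.20 ± 0.18). Foxa1 had 7.49, 6.06 and 5.03 CPM at E9.0 and 3.20, 1.56 and 3.66 CPM at E9.5 (log2 -1.14 ± 0.24). Pax9 (6.09, 5.04 and 5.07 CPM at E9.0 and 2.47, 1.85 and 3.37 CPM at E9.5; log2 -1.08 ± 0.19) and Nkx2-3 (log2 -1.03) fell with them, while Pax1 (log2 -0.46 ± 0.33) and Foxe1 of the thyroid bud (log2 0.36 ± 0.32) were not called. Endothelial genes were lower as well, 13 of 32 against 2 higher (median -0.33, and 0.037 with total counts only). Without the second E9.5 library the median was -0.16, with 9 lower and 5 higher. Among the falls, Etv2, the factor that specifies endothelium, had 5.65, 4.88 and 5.76 CPM at E9.0 and 0.549, 1.23 and 1.03 CPM at E9.5 (log2 -2.53 ± 0.24). Flt4 had 31.3, 29.3 and 27.99 CPM at E9.0 and 15.1, 10.6 and 16.3 CPM at E9.5 (log2 -1.07 ± 0.16). Apln (log2 -0.94) and Sox18 (log2 -0.87) also fell, as did the widely used endothelial genes Erg (log2 -0.68, adjusted p up to 0.0834 without any E9.0 or the second E9.5 library), Egfl7 (log2 -0.66) and Cdh5 (log2 -0.44, adjusted p up to 0.0772 without the first or the second E9.0 or the second E9.5 library). Pecam1 (log2 0.21 ± 0.16), Tie1 (log2 0.077 ± 0.13) and Tek (log2 -0.13 ± 0.09) were not called. The 2 rises were Robo4 (1.248, 1.72 and 1.46 CPM at E9.0 and 3.17, 1.70 and 3.80 CPM at E9.5; log2 0.94 ± 0.28, adjusted p up to 0.0812 without the first or the third E9.0 or the first or the third E9.5 library) and Lyve1 (log2 1.83).

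Signalling genes moved in both directions. In the Wnt pathway 19 of 49 genes rose and 12 fell. Ligands and their enhancers were among the rises. The ligands Wnt7a (1.32, 1.93 and 0.989 CPM at E9.0 and 8.17, 7.95 and 7.46 CPM at E9.5; log2 2.49 ± 0.21), Wnt4 (log2 1.28), Wnt3 (log2 1.23) and Wnt9a (log2 1.30) rose, while Wnt1 fell, as given above. The R-spondins Rspo3 (1.84, 4.02 and 2.41 CPM at E9.0 and 17.2, 18.3 and 17.6 CPM at E9.5; log2 2.66 ± 0.25), Rspo2 (log2 1.76) and Rspo1 (log2 1.29) rose too. Receptors and transcriptional partners were among the falls, with Fzd7 at 246, 244 and 251 CPM at E9.0 and 134, 127 and 130.3 CPM at E9.5 (log2 -0.92 ± 0.07), Fzd5 at log2 -0.85 and the target Sp5 at 17.3, 14.5 and 16.04 CPM at E9.0 and 6.52, 9.39 and 6.57 CPM at E9.5 (log2 -1.08 ± 0.14). The receptors Fzd6 (log2 0.69), Fzd10 (log2 0.53) and Fzd8 (log2 0.31, adjusted p up to 0.0764 without the third E9.0 library) rose. Among secreted inhibitors Dkk2 (log2 1.93) and Dkk3 (log2 1.31) rose and Sfrp1 (log2 -0.57) and Frzb (log2 -0.75) fell. In the FGF pathway 3 of 26 genes rose and 11 fell (median -0.064, and 0.31 with total counts only). Of the ligands Fgf3 (6.24, 4.83 and 7.78 CPM at E9.0 and 1.77, 2.38 and 1.53 CPM at E9.5; log2 -1.73 ± 0.22) and Fgf16 (log2 -1.56) fell. Of the feedback genes that FGF signals induce, Spred3 (log2 -0.74), Dusp4 (log2 -0.65), Spry4 (log2 -0.54), Spry2 (log2 -0.46), Etv5 (log2 -0.46), Spred2 (log2 -0.38, adjusted p up to 0.11 without the first E9.0 or the first E9.5 library) and Spred1 (log2 -0.37) fell. Spred2 turned to 0.020 with total counts only. Dusp6 (log2 0.13 ± 0.073), Spry1 (log2 0.12 ± 0.11) and Etv4 (log2 -0.0074 ± 0.15) were not called. Among receptors Fgfr3 rose (23.6, 24.2 and 24.98 CPM at E9.0 and 44.8, 43.7 and 48.1 CPM at E9.5; log2 0.90 ± 0.08), Fgfr4 (log2 -1.17) and Fgfr1 (log2 -0.27, adjusted p up to 0.0547 without the first E9.0 library) fell, and Fgfr2 was not called (log2 0.14 ± 0.06). Fgfr1 turned to 0.12 with total counts only.

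In the hedgehog pathway 3 of 18 genes rose and 6 fell (3 without the first E9.0 library; median -0.30, and 0.093 with total counts only). The receptor Ptch1, itself a target of the signal, had 190.3, 165 and 150.1 CPM at E9.0 and 93.6, 73.7 and 109 CPM at E9.5 (log2 -0.87 ± 0.12). The target Gli1 had 27.5, 24.9 and 17.8 CPM at E9.0 and 16.04, 13.2 and 19.002 CPM at E9.5 (log2 -0.53 ± 0.15, adjusted p up to 0.0558 without the first E9.0 library). The co-receptor Gas1 rose (113, 123 and 106 CPM at E9.0 and 188, 186 and 169.8 CPM at E9.5; log2 0.67 ± 0.062). In the BMP and TGF-beta pathway 15 of 33 genes rose and 5 fell. Among the ligands Bmp6 (log2 1.31), Gdf6 (log2 1.21), Bmp4 (10.1, 8.63 and 6.36 CPM at E9.0 and 16.6, 13.1 and 16.4 CPM at E9.5; log2 0.90 ± 0.15), Gdf7 (log2 0.68), Bmp7 (log2 0.57) and Gdf11 (log2 0.39) rose, and Gdf10 fell (log2 -1.07). The ligands Bmp2 (log2 -0.11 ± 0.13), Bmp5 (log2 -0.13 ± 0.10), Tgfb1 (log2 -0.40 ± 0.21), Tgfb2 (log2 -0.21 ± 0.25) and Tgfb3 (log2 0.15 ± 0.14) were not called. Rises were also seen for the induced inhibitors Bambi (log2 1.01), Smad6 (log2 0.68) and Smad7 (log2 0.56) and the target Id4 (log2 1.37). Of the secreted antagonists Fst (46.02, 46.4 and 49.2 CPM at E9.0 and 18.2, 26.2 and 19.6 CPM at E9.5; log2 -1.14 ± 0.13), Grem1 (log2 -0.91) and Chrdl1 (log2 -0.76) fell, while Nog rose (log2 0.32, adjusted p up to 0.122 without the first or the second E9.0 or the second or the third E9.5 library) and Chrd was not called (log2 0.13 ± 0.22). Of the more widely used targets Id1 fell (log2 -0.26), and Id2 (log2 0.061 ± 0.06) and Id3 (log2 -0.14 ± 0.077) were not called. Id1 turned to 0.11 with total counts only. Retinoic acid genes were mostly not called, with 3 of 22 higher and 3 lower. The synthesis enzymes Aldh1a3, of eye and nose (25.5, 36.04 and 26.6 CPM at E9.0 and 73.7, 80.2 and 65.5 CPM at E9.5; log2 1.31 ± 0.20), and Aldh1a1, of the dorsal retina (log2 2.24), rose. The degrading enzyme Cyp26c1 of the anterior hindbrain fell (44.8, 38.8 and 43.6 CPM at E9.0 and 20.3, 23.6 and 19.9 CPM at E9.5; log2 -0.99 ± 0.085). Aldh1a2, of trunk mesoderm, had 22.5, 23.01 and 11.3 CPM at E9.0 and 11.7, 4.52 and 8.49 CPM at E9.5 and was not called (log2 -1.18 ± 0.59). In the Notch pathway 10 of 26 genes rose and 3 fell. The ligands Dll3 (2.79, 2.74 and 1.76 CPM at E9.0 and 9.15, 9.13 and 9.77 CPM at E9.5; log2 1.97 ± 0.15), Jag2 (log2 1.44) and Dll1 (log2 0.51) and the feedback gene Nrarp (19.1, 27.03 and 28.8 CPM at E9.0 and 48.8, 55.1 and 57.5 CPM at E9.5; log2 1.09 ± 0.11) rose. The ligands Jag1 (log2 -0.19 ± 0.094) and Dll4 (log2 0.02 ± 0.17), Hes1 (log2 -0.13 ± 0.074) and Rbpj (log2 -0.13 ± 0.081) were not called. Of 43 axon guidance genes 11 rose and 9 fell. The Eph receptors Epha3 (2.13, 2.15 and 2.15 CPM at E9.0 and 18.1, 17.3 and 18.3 CPM at E9.5; log2 3.06 ± 0.16) and Epha5 (log2 2.28) and the netrin receptors Dcc (log2 0.99), Unc5a (log2 0.997) and Unc5c (log2 0.73) rose. The semaphorin receptor Nrp2, which marks migrating crest and vessels, had 182, 158 and 165 CPM at E9.0 and 94.7, 71.02 and 84.7 CPM at E9.5 (log2 -1.01 ± 0.094). Rgma (log2 -0.76) and Robo1 (log2 -0.56) fell.

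A set of genes known to decline as embryos age was lower at E9.5. Of 23 genes tied to Lin28 and let-7, the RNA-binding protein and the microRNA that time development, 1 rose and 16 fell (median -0.28, and 0.090 with total counts only). Lin28a had 971, 895 and 1061 CPM at E9.0 and 341, 389 and 337 CPM at E9.5 (log2 -1.46 ± 0.087; edgeR adjusted p = 1.67e-08), 2.74-fold lower. Nr6a1, a nuclear receptor of trunk and early embryo, had 374, 349 and 373 CPM at E9.0 and 100.2, 149 and 96.7 CPM at E9.5 (log2 -1.66 ± 0.16), 3.16-fold lower. Trim71, another let-7 target, had 429, 381 and 457 CPM at E9.0 and 191, 223 and 199.5 CPM at E9.5 (log2 -1.05 ± 0.091). Arid3b had 141, 104 and 104.5 CPM at E9.0 and 70.3, 72.4 and 64.2 CPM at E9.5 (log2 -0.75 ± 0.098). Lin28b was only slightly lower (log2 -0.42) and Igf2bp3 was not called (log2 -0.10 ± 0.058). Of 30 epiblast and early embryonic genes 16 were tested, and 2 rose and 7 fell. Pou5f1 (Oct4) had 29 counts at E9.0 and 1 at E9.5, a ratio of 49.6 with a 95% counting interval of 8.23 to 2027. Dnmt3b, the embryonic DNA methyltransferase, had 166, 128 and 147 CPM at E9.0 and 68.5, 74.5 and 71.1 CPM at E9.5 (log2 -1.04 ± 0.087). Dnmt3a rose (129, 142 and 124 CPM at E9.0 and 170.1, 148 and 168 CPM at E9.5; log2 0.30 ± 0.068). Sall4 had 197, 163 and 158 CPM at E9.0 and 93.9, 106 and 98.7 CPM at E9.5 (log2 -0.79 ± 0.081). Zscan10 had 10.6, 7.08 and 7.40 CPM at E9.0 and 2.20, 3.08 and 2.27 CPM at E9.5 (log2 -1.71 ± 0.23). Foxd4 (1.76, 1.02 and 1.12 CPM at E9.0 and 0, 0.0587 and 0.0710 CPM at E9.5; log2 -4.74 ± 0.55), an early neural plate factor, Eras, a Ras relative of embryonic stem cells (log2 -3.17), Arid3c (log2 -3.48), Cdhr2 (log2 -3.42) and Spink1 (log2 -2.90) were among the 10 largest falls of called genes with that minimum of counts and groups that do not overlap. The remaining members of those 10 are T, Egr2, Lars2, Mir6236 and the histone gene Hist1h2ba, whose values were 0.881, 45.2 and 21.8 CPM at E9.0 and 0.579, 0.411 and 0.533 CPM at E9.5, high in 2 libraries of E9.0 only.

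Several inhibitors of the cell cycle rose. Of 24 cyclins and inhibitors 12 rose and 2 fell. The inhibitor Cdkn1c had 108, 103 and 83.7 CPM at E9.0 and 287, 269 and 285 CPM at E9.5 (log2 1.52 ± 0.078). Cdkn1b had 29.1, 33.1 and 35.3 CPM at E9.0 and 48.8, 45.7 and 49.2 CPM at E9.5 (log2 0.56 ± 0.09), and the retinoblastoma relative Rbl2 rose by 0.86 in log2. The cyclin Ccnd1 (log2 0.13 ± 0.057) and its kinase Cdk4 (log2 0.058 ± 0.053) were not called. Of 35 DNA replication genes 3 rose and 8 fell, and of 34 mitosis genes 4 rose and 6 fell. The shares called, 31.4% and 29.4%, are near that of all genes, and with total counts only 16 and 15 rose and 0 of either list fell. Without the first E9.5 library 2 fell on each list. The greatest called change of either list was that of Rrm1, a subunit of ribonucleotide reductase (log2 0.43 ± 0.056). Mki67 (log2 0.13 ± 0.11), Pcna (log2 0.022 ± 0.06) and Top2a (log2 0.025 ± 0.075) were not called. Of 58 tested histone genes of the replication-dependent clusters, which are near-identical copies whose reads the counting could have split, 23 rose and 1 fell (median 0.23). Without the first E9.5 library 15 rose. Hist1h1a, a linker histone, had 793, 714 and 856 CPM at E9.0 and 1241, 1312 and 1089.95 CPM at E9.5 (log2 0.62 ± 0.073). Of 28 p53 targets 11 rose and 3 fell. Ccng1 had 27.4, 38.99 and 40.9 CPM at E9.0 and 77.9, 80.7 and 70.7 CPM at E9.5 (log2 1.08 ± 0.11). Phlda3 had 4.26, 4.24 and 5.98 CPM at E9.0 and 14.4, 11.5 and 12.5 CPM at E9.5 (log2 1.38 ± 0.21). Cdkn1a had 2.35, 2.84 and 3.57 CPM at E9.0 and 5.34, 6.16 and 6.00 CPM at E9.5 (log2 0.96 ± 0.30, adjusted p up to 0.101 without the first or the second E9.0 or the second or the third E9.5 library). Mdm2 (log2 0.0095 ± 0.063), Bax (log2 -0.042 ± 0.071) and Bbc3 (log2 -0.17 ± 0.13) were not called. Among 27 imprinted genes 11 rose and 2 fell. Plagl1 had 26.4, 25.2 and 15.01 CPM at E9.0 and 69.5, 60.5 and 64.5 CPM at E9.5 (log2 1.57 ± 0.21). Dlk1 had 51.4, 49.3 and 34.1 CPM at E9.0 and 135, 93.1 and 121 CPM at E9.5 (log2 1.38 ± 0.21). Igf2r had 360.2, 350.4 and 326 CPM at E9.0 and 577, 624 and 502 CPM at E9.5 (log2 0.72 ± 0.091). The growth factor Igf2 was not called (log2 0.12 ± 0.11).

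Most genes for making ribosomes fell by small amounts under TMM scaling. Of 43 ribosome biogenesis genes 37 were lower and 0 higher, against 16% of all genes lower (median -0.41). With total counts only 2 were lower and the median was -0.021, and with total counts taken without the ribosomal RNA rows it was -0.37 with 35 lower. Ncl (nucleolin) had 2524, 2444 and 2542 CPM at E9.0 and 1413, 1361 and 1415 CPM at E9.5 (log2 -0.84 ± 0.06; edgeR adjusted p = 5.97e-08). Gar1, a small nucleolar RNA protein, had 66.3, 63.9 and 70.7 CPM at E9.0 and 35.7, 36.5 and 42.7 CPM at E9.5 (log2 -0.81 ± 0.078). Ddx21 had 545, 522 and 569.8 CPM at E9.0 and 336, 359 and 341 CPM at E9.5 (log2 -0.66 ± 0.06). Fbl (fibrillarin) had 204, 192 and 220.5 CPM at E9.0 and 129, 127 and 139 CPM at E9.5 (log2 -0.64 ± 0.071). Tcof1, which is altered in a human facial syndrome, fell too (209, 177 and 177 CPM at E9.0 and 128, 137 and 131 CPM at E9.5; log2 -0.51 ± 0.079). The polymerase I factors Ubtf (log2 -0.061 ± 0.054) and Rrn3 (log2 -0.082 ± 0.063) were not called. The share of the ribosomal RNA precursor, given above, was lower at E9.5 as well and was not read as a measure of its synthesis. Of 80 ribosomal protein genes 3 were higher and 14 lower (median -0.035). The counts were 34 higher and 0 lower with total counts only, and 29 were lower with a length and GC trend removed. Many of these genes have copies that could share reads. In the 250 bases before the start, the E-box CACGTG was in 2 of 38 promoters of the biogenesis list (5.26%) and in 8.38% of tested genes.

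Subunits of the respiratory chain were among the rises and many genes of glycolysis among the falls. Of 76 subunits of the respiratory chain 45 rose and 2 fell (median 0.23). Single changes were small: Atp5c1 had 135, 144 and 142 CPM at E9.0 and 204, 185 and 198 CPM at E9.5 (log2 0.48 ± 0.062). Ndufb8 had 86.98, 77.3 and 84.97 CPM at E9.0 and 117, 123 and 109 CPM at E9.5 (log2 0.48 ± 0.068). Heart muscle is rich in mitochondria, its genes rose in the same libraries, and its part in this list was not tested. Of 39 genes of glycolysis and hypoxia 6 rose and 16 fell (median -0.20, and 0.18 with total counts only). The glucose transporter Slc2a3 had 887, 759 and 1047 CPM at E9.0 and 439, 611 and 369 CPM at E9.5 (log2 -0.92 ± 0.20). Its relative Slc2a1 had 613, 476 and 578 CPM at E9.0 and 318, 427 and 319 CPM at E9.5 (log2 -0.65 ± 0.12). The hexokinase Hk2 (299, 259.9 and 299 CPM at E9.0 and 159, 205 and 169.8 CPM at E9.5; log2 -0.69 ± 0.11) and Pgk1 (log2 -0.65) fell with them. Hk1 and Ldhb, the forms used in oxidative tissue, rose. Hk1 had 29.1, 27.8 and 29.6 CPM at E9.0 and 64.5, 77.5 and 69.8 CPM at E9.5 (log2 1.29 ± 0.10). Ldhb had 28.5, 26.2 and 29.1 CPM at E9.0 and 66.95, 61.95 and 69.9 CPM at E9.5 (log2 1.247 ± 0.083). Ldha fell (2274, 2043 and 2357 CPM at E9.0 and 1472, 1586 and 1423 CPM at E9.5; log2 -0.57 ± 0.069). Vegfa (log2 -0.20 ± 0.098) and Hif1a (log2 0.08 ± 0.066) were not called. Of 24 cholesterol synthesis genes 5 rose and 1 fell. Of 25 genes of the ATF4 stress response 5 rose and 4 fell, a share near that of all genes, with Atf4 not called (log2 0.055 ± 0.06). Among 21 immediate early genes, which respond to handling of the tissue within minutes, 9 rose (5 without the third E9.5 library) and 1 fell. Fos had 0.514, 0.644 and 0.731 CPM at E9.0 and 5.09, 1.70 and 7.81 CPM at E9.5 (log2 2.89 ± 0.89, adjusted p up to 0.0977 without any E9.0 or the first or the third E9.5 library). Hspa1b had 1.61, 1.18 and 1.33 CPM at E9.0 and 4.60, 4.28 and 4.40 CPM at E9.5 (log2 1.70 ± 0.29).

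**Figure D4:**
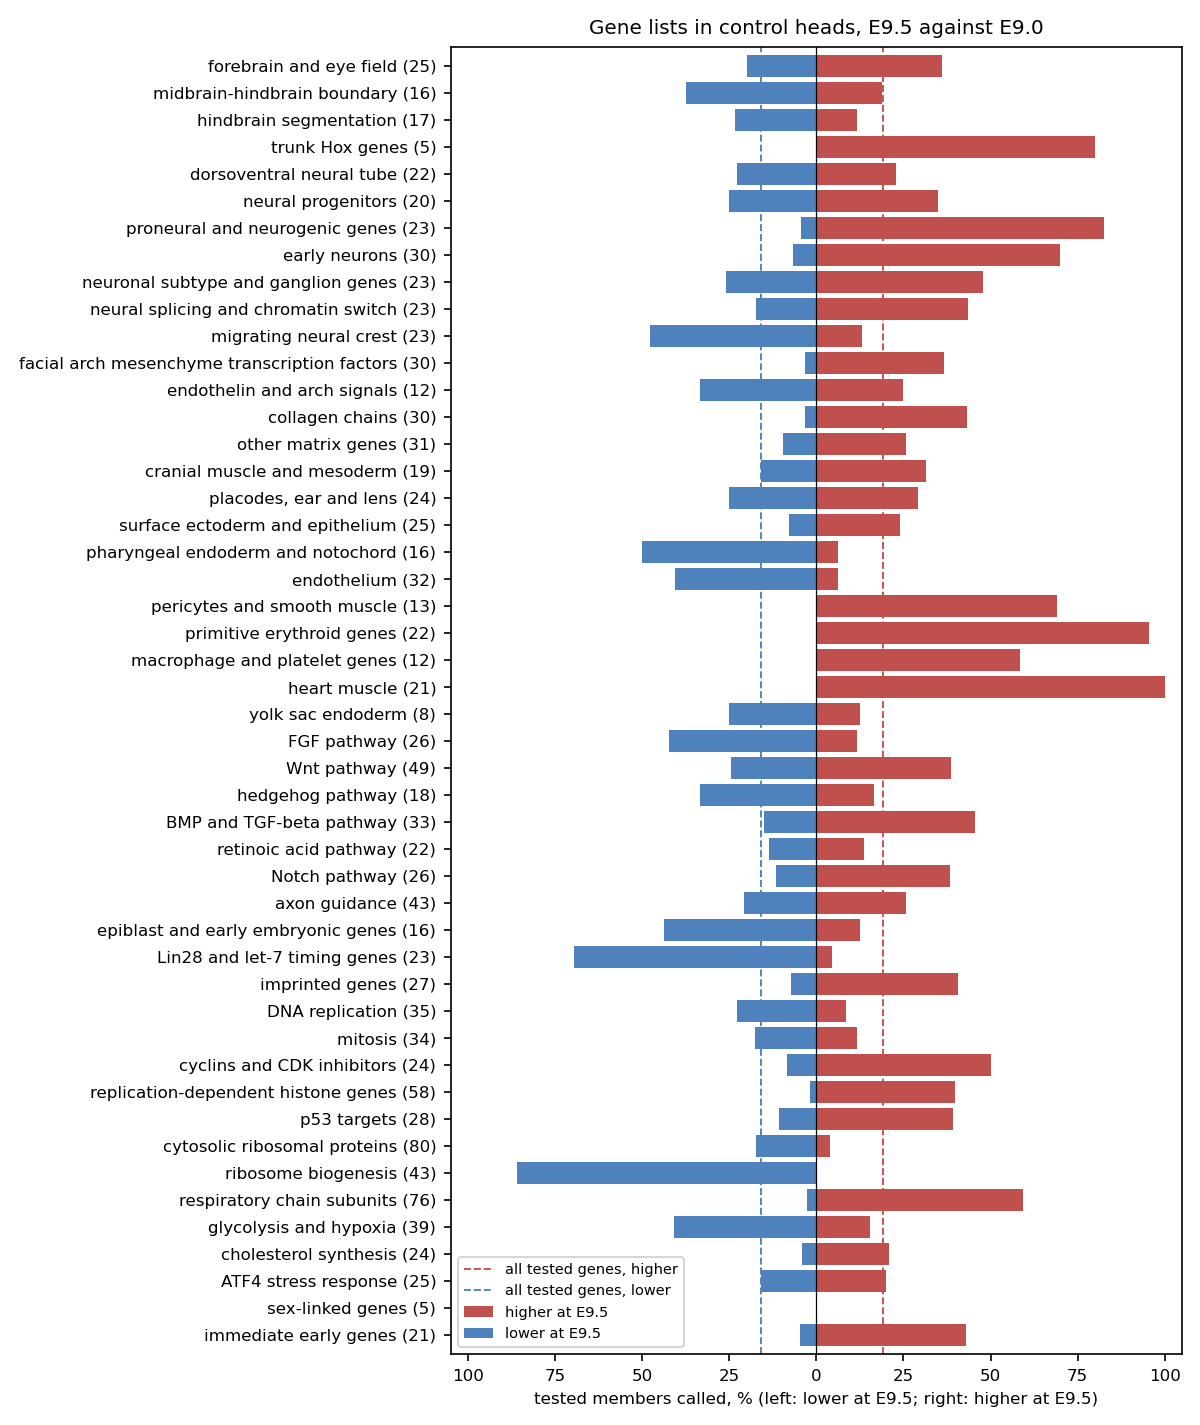
Share of tested members called higher (red, to the right) or lower (blue, to the left) at E9.5 in the control libraries for 48 gene lists, with the number tested in brackets. Dashed lines mark the shares of all tested genes, 19.2% higher and 16% lower; heart and erythroid lists reach furthest to the right and ribosome biogenesis furthest to the left, where its members' changes are relative to TMM scaling.

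The same stage comparison in the mutant embryos, which shares no library with that of the controls, called 35.4% of genes. Of the 5216 genes called in controls, 5033 (96.5%) had the same sign in mutants, and 3612 were called in both, 69.2% of the control calls and 69.0% of the mutant calls. Of these, 3602 went in the same direction. Of 1224 distinct list members tested, 637 were called in controls and 599 of these had the same sign in mutants. For single genes of heart, blood and neurons, the stage difference of Myl2 was log2 7.84 in controls and 7.36 ± 0.27 in mutants, that of Hbb-y log2 3.20 and 3.27 ± 0.40, and that of Dcx log2 2.69 and 3.11 ± 0.22. Some lists had other counts in mutants: the endothelial list had 7 genes higher and 4 lower (2 and 13 in controls), the p53 targets 5 and 16 (11 and 3), the histone genes 3 and 3 (23 and 1) and the ribosomal proteins 0 and 58 (3 and 14). Whether these lists differ between genotypes was not tested as lists. The test of the difference itself, gene by gene, called 10 genes, 0.0675% of those tested, and 6 of them are list members. Barx1 rose in controls and had 1.05, 0.745 and 1.62 CPM at E9.0 and 1.72, 2.15 and 1.73 CPM at E9.5 in mutants, a stage difference that differed by -3.82 ± 0.60 (mutant minus control; edgeR adjusted p = 0.0301). Lhx8 (-3.88 ± 0.55), Dlx1 (-2.72 ± 0.32) and Msx1 (-0.67 ± 0.098) also had a lower stage difference in mutants, and so did the p53 targets Phlda3 (-1.93 ± 0.28) and Ccng1 (-0.97 ± 0.15). The falls of Sox10 and Foxd3 were not called as different (-0.56 ± 0.28 and -1.85 ± 0.43). The count of 10 rests on single libraries: it was 6 without the first and 2 without the second control library of E9.0, and 4 without the first and 16 without the second control library of E9.5. Among the mutants it was 4 without the third library of E9.0, and 4, 2 and 1 without the first, the second and the third library of E9.5.

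**Figure D5:**
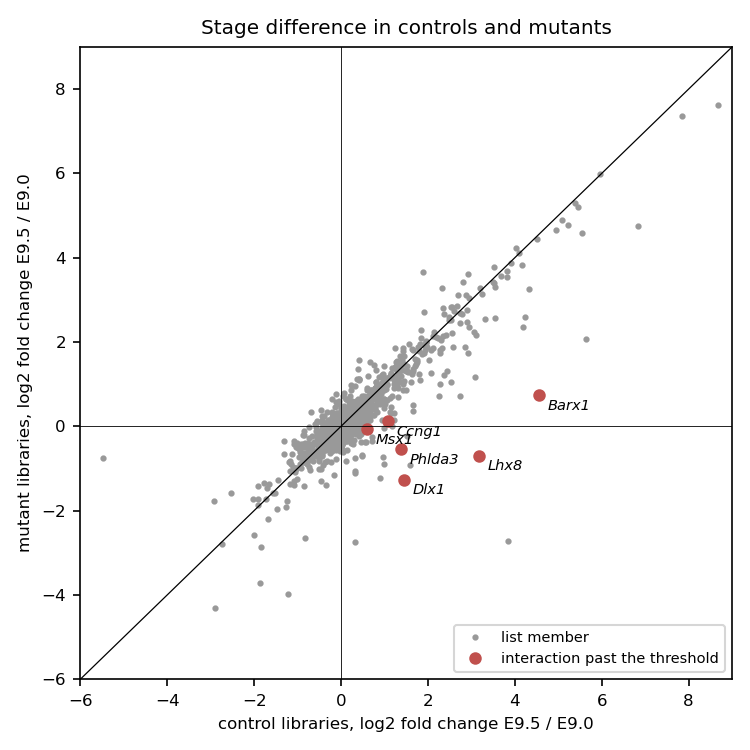
Log2 fold change of E9.5 over E9.0 in control libraries (horizontal) against mutant libraries (vertical) for 1224 list members, with the line of equal change. Red points are the 6 members whose stage difference differed between genotypes, and all 6 lie below the line.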

How the data were processed

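RNA of 12 mouse libraries was sequenced by the authors, and the 6 heterozygous controls are described here. The authors deposited 1 table of raw read counts for 24421 gene symbols and 12 library columns; all columns were matched to samples. The submitters' processing notes name cutadapt, STAR, featureCounts, MultiQC and the build mm10, without versions; which annotation was counted, and whether by strand, is not given in the sources used here. Heads were kept in RNAlater and RNA was extracted with an RNeasy kit, per the labels' protocols.

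The tests used edgeR 4.0.16 in R 4.3.3, where filterByExpr kept 14810 genes and left out 9611 symbols (at most 0.0778% of the counts of a library). Libraries were scaled by TMM and fitted together, all 12 in 1 model of 4 group means with robust quasi-likelihood dispersions, in which the mutants also enter the filter, the scaling and the estimate of the spread (common biological coefficient of variation 8.77%). P-values were two-sided and adjusted by Benjamini-Hochberg over all tested genes, with a threshold of 0.05. The members and the 49 gene lists were chosen with earlier results of these data known, so lists are described by counts and medians beside those of all genes and were not tested as sets; 1 list, of the mitochondrial genome, matched 0 symbols. Named are the 10 largest rises and falls among called genes with a mean of at least 10 counts, no clone name and groups that do not overlap, up to 4 called rises and 4 called falls of a list, and other list members with their values. On simulated data with 200 changed genes of 14279, 34% of 1.25-fold, 68% of 1.5-fold, 96% of 2-fold and 100% of 4-fold changes were called. The changed genes were drawn from those above 1 CPM at E9.0 and were far fewer than the genes called in the real data. These shares therefore need not hold for the real comparison or for genes of low level. Results of some list members are not reported here. Of the symbols, 23376 were matched in GENCODE M21 directly and 670 through a RefSeq synonym. Of 341 of the genes named, 106 overlap another annotated gene and could share its reads. Intervals and floors cover counting error only. Promoters are from RefSeq. Alternatives included other scalings, DESeq2 1.42.0, limma-voom 3.58.1, other filters, a replicate block and each library left out.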

Additional observations from a re-analysis of the deposited data

Results flagged for a closer look

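The change from E9.0 to E9.5 differed between mutants and controls, by the interaction term of the same edgeR quasi-likelihood fit, in 10 of 14810 genes. Each value is the log2 change of the mutants minus that of the controls, and none was weighed for a cause.

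For 8 of these genes the controls rose and the value for the mutants was lower. The facial arch genes Barx1 and Lhx8, homeobox factors of jaw and tooth mesenchyme, differed by -3.82 and -3.88. Dlx1, a homeobox gene of the arches and ventral forebrain, differed by -2.72, and Msx1, a homeobox gene of crest mesenchyme, by -0.668. Ccng1 and Phlda3, targets of p53, differed by -0.97 and -1.93, and Slc19a2, a thiamine transporter, by -1.32. Phlda3 ranged from 19.8 to 35.5 CPM in the mutants at E9.0, against 4.24 to 5.98 CPM in the controls. At E9.5 its range was 16.7 to 19.6 CPM in mutants and 11.5 to 14.4 CPM in controls.

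Svop, which encodes a synaptic vesicle protein, differed by -3.11, with 0.0536 to 0.301 CPM in controls at E9.0 and 0.939 to 1.24 CPM at E9.5. Trh, which encodes thyrotropin-releasing hormone, differed by -2.91: the controls ranged from 6.83 to 14.1 CPM at E9.5 and the mutants from 0.713 to 1.26 CPM. Cd44, which encodes a hyaluronan receptor, differed by 0.857, with 12.3 to 12.6 CPM in controls and 19.1 to 22.5 CPM in mutants at E9.5.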

How the results depend on the processing

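The number of genes called between the control stages, 5216, was 5301 with relative log expression scaling, 5260 with DESeq2, 5214 with limma-voom, 4775 without the filter, 4725 with only the 6 controls and 5940 with a length and GC trend removed. Leaving out each library in turn gave 4088 to 5444 calls in controls (2342 to 2950 higher, 1746 to 2494 lower), 4060 to 5549 in mutants (2382 to 3056 higher, 1678 to 2493 lower) and 1 to 16 for the interaction. Of the 5216 genes, 3328 were called in all 6 fits that leave out a control. Scaling by total counts only called 6729 genes higher and 255 lower in controls, 96.3% higher against 54.4%, with a median of all genes of 0.377 in log2, a shift of 0.369; in mutants it called 3326 genes, 429 of them lower. Without the ribosomal RNA rows, a setting added after seeing the data, the median was 0.0433, a shift of 0.0351, and 62.2% were higher. A test against a 1.5-fold change called 963 genes in controls (810 higher, 153 lower), 936 in mutants (744 higher, 192 lower) and 2 for the interaction. At an adjusted p under 0.01 the counts were 3324 (1364 lower), 3384 (1422 lower) and 1. The interaction gave 76 genes with DESeq2, 5 with limma-voom and 18 with the length and GC trend removed; the causes were not tested. Same-numbered control libraries did not deviate together (correlations 0.0131, -0.0602 and -0.0293). Whether they share a litter or a preparation cannot be told from these values. The replicate block gave 5019 calls in controls, and 3957 with only the 6 controls, a fit added after seeing the data.

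Among the named genes, Afp turned to -3.19 (adjusted p 0.0464) without the first E9.5 library, and reached 5.19 without the second E9.0 library. With total counts only, Eftud2 turned to 0.22, Epcam to 0.35 (adjusted p 0.0410), Fgfr1 to 0.12, Id1 to 0.11, Ptbp1 to 0.034, Rest to 0.052 and Spred2 to 0.020. Of the 52 list counts of 5 or fewer, 11 were the same in every fit that leaves out a control. The small list medians of neural progenitors (-0.041 to 0.036), the FGF pathway (-0.11 to -0.041) and the ribosomal proteins (-0.059 to -0.019) also moved in those fits. In the simulated data, with 3 libraries a group, changes under 1.5-fold were often not called.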
